A study of Mus musculus with 6 samples.

Results

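The SOX, FOX and KLF genes encode 3 families of DNA-binding transcription factors, and 75 of them were measured in mouse prostate cancer cells that carried either PIM1 or an empty vector. The genes were chosen by symbol from the deposited value table, which held 22180 genes with a probe set of their own. The members are 18 SOX genes, 40 FOX genes and 17 KLF genes, each read from its brightest probe set, and Sox2, Foxa1, Foxa2 and Foxo3 were left out of the set by the same rule.

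The cells are labelled prostate epithelial cancer cells from Rb1F/F:Trp53F/F:PB-Cre4 mice, so both groups share deletion of Rb1 and Trp53 by a Cre driven by a probasin promoter that is active in prostate epithelium. They were infected with a lentivirus for PIM1, a serine/threonine kinase (PIM1 cells, 3 arrays), or with the lentivirus of the control empty vector (EV cells, 3 arrays). Ages of the mice are not in the labels. Both groups grew in DMEM with charcoal-stripped serum, insulin, transferrin and selenium, pituitary extract, epidermal growth factor and cholera toxin. Whether the replicates were separate cultures or infections is not in the labels, so each p-value reflects only how far these samples scatter, and that scatter may be technical. The comparison of PIM1 with EV addresses which of these factors differ in expression between cells with and without introduced PIM1.

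SOX factors bind DNA through an HMG box that bends the double helix, and they direct choices of cell fate in cartilage, nervous system, gut and gonad. FOX factors bind through a winged-helix forkhead domain. Among them the FOXO proteins are held in the cytoplasm when AKT and related kinases phosphorylate them, FOXM1 drives genes of mitosis, and the FOXF and FOXC proteins act in mesenchyme. KLF factors bind GC-rich sequences through a row of zinc fingers, and they balance proliferation and differentiation in many epithelia, with KLF4 and KLF5 often acting in opposite ways.

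The upstream sequences of 4 members that rose are shown because Foxf2 and Foxc1 are neighbours on a chromosome, and because Klf9 and Sox12 hold a forkhead core motif. Each is the 250 bases before the RefSeq start, 5′ to 3′ on the gene's strand, from build GRCm38.p6, and lies upstream of the gene. The RefSeq promoter table held 50 of the 75 members. Capitals mark matches to 4 motifs, searched on both strands. The first is the forkhead core TGTTTAC. Another is the core bound by SOX factors, written ACAANG with any base at N. The others are CCACCC, a site of the KLF type, and the GC box GGGCGGG. Matches may overlap, as the GC box and KLF-type matches of Foxf2 do.
Foxf2, chr13:31625566-31625815, plus strand: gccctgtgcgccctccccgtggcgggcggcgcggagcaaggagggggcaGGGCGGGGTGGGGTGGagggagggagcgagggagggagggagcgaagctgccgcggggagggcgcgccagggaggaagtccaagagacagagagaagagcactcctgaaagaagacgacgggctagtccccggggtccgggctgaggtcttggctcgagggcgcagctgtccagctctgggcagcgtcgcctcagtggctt
Foxc1, chr13:31806396-31806645, plus strand: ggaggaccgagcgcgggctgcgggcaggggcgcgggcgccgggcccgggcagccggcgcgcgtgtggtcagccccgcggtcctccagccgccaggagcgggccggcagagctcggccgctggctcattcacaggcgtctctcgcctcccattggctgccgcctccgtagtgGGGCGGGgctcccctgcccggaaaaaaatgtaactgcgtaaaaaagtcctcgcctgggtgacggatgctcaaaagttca
Klf9, chr19:23140976-23141225, plus strand: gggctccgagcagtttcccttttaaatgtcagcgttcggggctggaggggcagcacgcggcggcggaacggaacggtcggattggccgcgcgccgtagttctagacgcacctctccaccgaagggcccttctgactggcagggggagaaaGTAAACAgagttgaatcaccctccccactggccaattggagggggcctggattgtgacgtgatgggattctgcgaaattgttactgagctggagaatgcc
Sox12, chr2:152398047-152398296, minus strand: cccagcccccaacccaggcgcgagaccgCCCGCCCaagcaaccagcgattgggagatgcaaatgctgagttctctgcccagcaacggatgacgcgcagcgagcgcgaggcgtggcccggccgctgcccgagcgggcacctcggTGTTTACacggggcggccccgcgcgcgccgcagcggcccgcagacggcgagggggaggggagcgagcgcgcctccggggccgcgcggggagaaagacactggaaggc

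TGTTTAC was found upstream of 2 of the 50 members with a sequence, Klf9 and Sox12, and in 3.17% of all 32851 windows of this length. GGGCGGG was found upstream of 29 of the 50 (58.0%), against 23.4% of all windows, and upstream of 12 of the 17 called members with a sequence. CCACCC was found upstream of 21 of the 50 (42.0%), in 28.1% of all windows and upstream of 4 of the 17. ACAANG was found upstream of 13 of the 50 (26.0%), in 36.3% of all windows and upstream of 3 of the 17. A match is a description of the letters and not a site. The table can hold several starts per gene. A member was counted if any of its windows matched, whereas the share over all windows is per window, so the 2 are unlike measures.

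Values are log2 signals as deposited, and a difference is PIM1 minus EV on that scale, so 1 is a 2-fold change. A gene was called when limma's two-sided test over all 22180 genes gave a Benjamini-Hochberg adjusted p under 0.05. Of the 75 members 27 were called (36.0%), against 27.0% of all genes. Of these, 16 rose and 11 fell, against 16.1% of all genes higher and 10.9% lower, which is 21.3% and 14.7% of the members. Thus 59.3% of the called members were higher, as were 59.6% of the called genes of the table. The members' share was 46.7% after quantile normalization, 48.3% after cyclic loess and 73.9% after centring each array on its median over all probe sets, and the table's share was 47.0%, 54.2% and 73.5%. Among the brighter genes alone 44.4% of the called members were higher, against 64.9% of the called genes. A called change of at least 2-fold was seen for 6 of the 75 members, 5 higher and 1 lower, against 1388 of 22180 genes (6.26%). All 6 were among the 46 members above the median level of all genes, where 1256 of 11090 genes had such a change. The level of a gene is its mean over all 6 arrays, so a rise in PIM1 can itself place a gene above the median. Foxq1 averaged 3.78 in EV and 5.42 over the 6 arrays, where the median level was 4.01.

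The share of genes called differed with signal level. Above the median level of all genes (4.01), 44.0% of genes were called, and 23 of the 46 members there were. At or below that level 10.0% of genes and 4 of 29 members (13.8%) were called. For 42 members (56.0%) no EV array overlapped a PIM1 array, against 43.2% of all genes. Above the median level this held for 65.2% of members and 62.2% of genes, and at or below it for 41.4% and 24.2%. None of the 27 called members overlapped. A called gene seldom does with 3 arrays per group, so this adds no support to the calls. The median difference was -0.10 over the members and -0.05 over all genes, and the median absolute difference was 0.28 and 0.23.

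**Figure D1:**
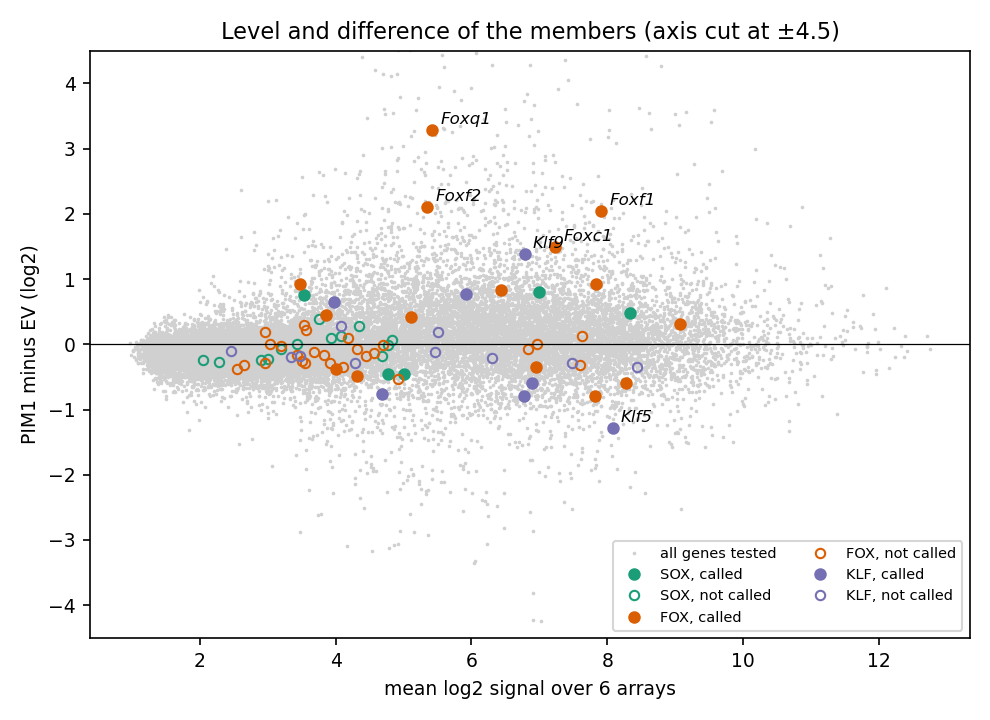
Mean log2 signal over 6 arrays (x axis) and PIM1 minus EV difference (y axis, log2) of the 75 members over the 22180 genes tested (grey points). Filled circles passed limma's adjusted p under 0.05 and open circles did not, and the 6 named members lie at or past a 2-fold change. The y axis is cut, so the most extreme other genes are not shown.

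Introduced gene and cell markers were read first. Pim1 read 5.26, 6.25 and 5.23 in EV and 7.11, 6.89 and 6.97 in PIM1, with no overlap (difference 1.41, limma adjusted p = 0.00455). Krt18, a keratin of simple epithelium, averaged 9.14 in EV and 4.90 in PIM1, whereas Epcam, an epithelial surface protein, averaged 2.50 and 2.35, and Krt8 4.73 and 4.65. Of 9 measured luminal markers 2 rose and 3 fell, and of 8 basal epithelial markers 0 rose and 3 fell, where 16.1% of all genes rose and 10.9% fell. The luminal markers that rose were Cd24a, from 7.55 to 9.21, and Hoxb13, from 4.99 to 5.57. Besides Krt18, the luminal markers Cdh1 and Prom1 fell, by 0.94 and 0.31. Of 12 fibroblast markers 10 rose and 1 fell, and their summed log2 signal was 75.5 to 75.9 on EV arrays and 97.5 to 98.3 on PIM1 arrays. Of 8 endothelial markers limma called 0, and 1 had an unadjusted p under 0.05. Calls among 9 leukocyte markers were 1 higher and 1 lower, among 7 smooth muscle markers 1 higher and 2 lower, and among 5 neuroendocrine markers 0 higher and 1 lower. In these cells labelled epithelial, 9 of the 12 fibroblast markers, 5 of the 9 luminal markers and 3 of the 8 basal markers had an EV mean above the median of all genes. Among the fibroblast markers Col3a1, a fibrillar collagen, averaged 9.96 in EV, whereas Lum, Fap and Thy1 averaged 1.78, 2.18 and 3.75. Among the basal markers the integrin gene Itga6 averaged 8.92 and Cdh3 6.25, whereas Krt14 and Trp63 averaged 2.98 and 2.83. In bulk samples a change in the number of cells of a type and a change in RNA per cell cannot be told apart.

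The largest rises were in the FOX family, of which 10 of 40 genes rose and 5 fell (37.5% called). The share called was 27.0% of all genes and 44.0% of genes above the median level, and 16.1% of all genes rose and 10.9% fell. Many FOX genes do not lie above that level, and at or below it 10.0% of genes were called. Foxq1, a forkhead factor of epithelial and mesenchymal gene control, read 3.61, 4.17 and 3.55 in EV and 7.05, 7.11 and 7.03 in PIM1. Its difference was 3.28 (standard error 0.165, adjusted p = 5.09e-06, 9.73-fold), larger in size than 99.6% of all genes. Its EV mean of 3.78 lay below the median level of all genes, and no detection call was used. The other Foxq1 probe set, which was dimmer, also rose, by 1.07 (limma adjusted p = 0.00555, over every probe set).

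The FOXF genes, which act in the mesenchyme of gut and lung, rose together. Foxf1 read 6.80, 7.15 and 6.71 in EV and 8.91, 8.94 and 8.93 in PIM1, a 4.12-fold rise (difference 2.04, adjusted p = 1.71e-05). Foxf2 read 4.04, 4.20 and 4.66 against 6.44, 6.36 and 6.40, a 4.29-fold rise (difference 2.10, adjusted p = 4.28e-05). In both genes the 3 PIM1 arrays lay close together and well above every EV array. Foxc1, a factor of mesenchyme, eye and skull development, read 6.30, 6.63 and 6.54 in EV and 7.87, 8.03 and 8.06 in PIM1 (difference 1.49, adjusted p = 5.95e-05). Its relative Foxc2 read 4.006, 3.722 and 4.004 against 3.76, 3.78 and 3.71 and was not called (difference -0.16, adjusted p = 0.334). Foxl1, a factor of gut mesenchyme, read 3.43, 3.68 and 3.77 against 3.97, 4.05 and 4.21 (difference 0.45, adjusted p = 0.0284), a low signal. Foxl2, a factor of the ovary, was not called (difference -0.36, adjusted p = 0.0625). The rise of the fibroblast markers, with a median difference of 1.28 over 12 genes, stands beside these mesenchymal factors on the same arrays, and its part in their change was not tested.

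**Figure D2:**
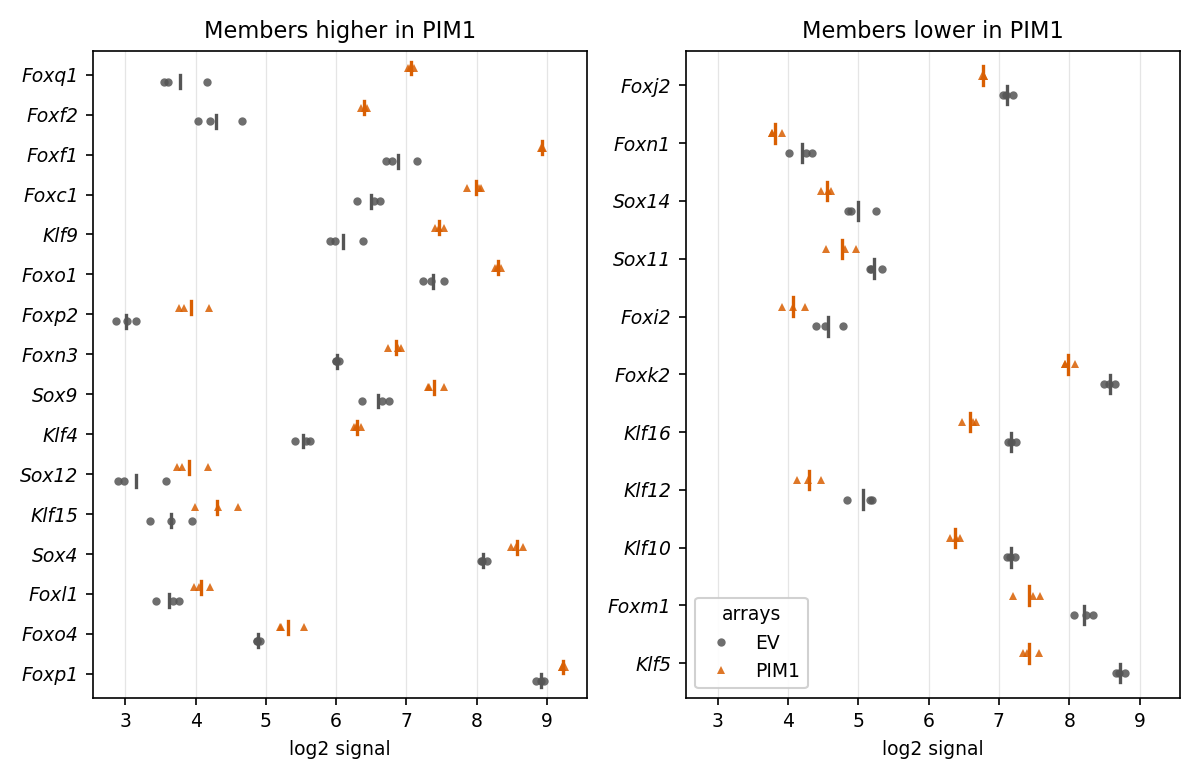
Log2 signal (x axis) of the 27 called members on each array, with EV arrays as circles, PIM1 arrays as triangles and vertical bars at the group means. The groups do not overlap for any of them, and Foxq1, Foxf2 and Foxf1 show the widest gaps.

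Genes of the FOXO group, whose products switch on cell cycle arrest, metabolic and antioxidant genes, included 2 rises, 0 falls and 1 gene that was not called. Over all genes 27.0% were called. Foxo1 read 7.23, 7.35 and 7.53 in EV and 8.26, 8.29 and 8.35 in PIM1, a 1.90-fold rise (difference 0.93, standard error 0.109, adjusted p = 0.000488). The other Foxo1 probe set also rose by 0.93 (limma adjusted p = 0.0314, over every probe set). Foxo4 read 4.92, 4.88 and 4.88 against 5.216, 5.537 and 5.201 (difference 0.42, adjusted p = 0.0300). Foxo6 read 4.53, 3.96 and 3.91 against 4.36, 4.34 and 3.99 and was not called (difference 0.09, adjusted p = 0.748). Phosphorylation, which sets where FOXO proteins act, is not measured by these arrays.

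Of 25 measured genes that FOXO factors are known to switch on, 13 rose and 2 fell. The share called was 27.0% of all genes and 44.0% of genes above the median level, where 19 of the 25 lie (18 by the EV mean). Of all genes 16.1% rose and 10.9% fell, and above the median level 29.4% rose and 14.7% fell. The median difference of the list was 0.43, against -0.05 over all genes and 0.10 over genes above the median level. Sod2, the mitochondrial superoxide dismutase, rose from 8.36 ± 0.09 (SD, n = 3) to 11.02 ± 0.08 (difference 2.66). This gene is also a known target of NF-kappaB. Txnip, an inhibitor of thioredoxin and glucose uptake, rose by 1.77, and Sesn1, a stress-induced regulator of mTORC1, by 1.42. Among the others, the cell cycle inhibitor gene Cdkn1b rose by 0.67, Pdk4, which restrains pyruvate oxidation, by 0.81, and Ccng2, a cyclin of arrested cells, by 0.58. Those that fell were the cell cycle inhibitor gene Cdkn1a, from 6.02 ± 0.23 to 4.58 ± 0.12 (difference -1.44), and the ubiquitin ligase gene Fbxo32 (-0.42). The Fbxo32 call was lost without EV replicate 1 and without PIM1 replicate 2 (adjusted p = 0.0510 and 0.0783, in a range from 0.00280 to 0.0783). Genes for gluconeogenesis that FOXO1 drives in liver, G6pc and Pck1, lay at low signals and were not called.

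**Figure D3:**
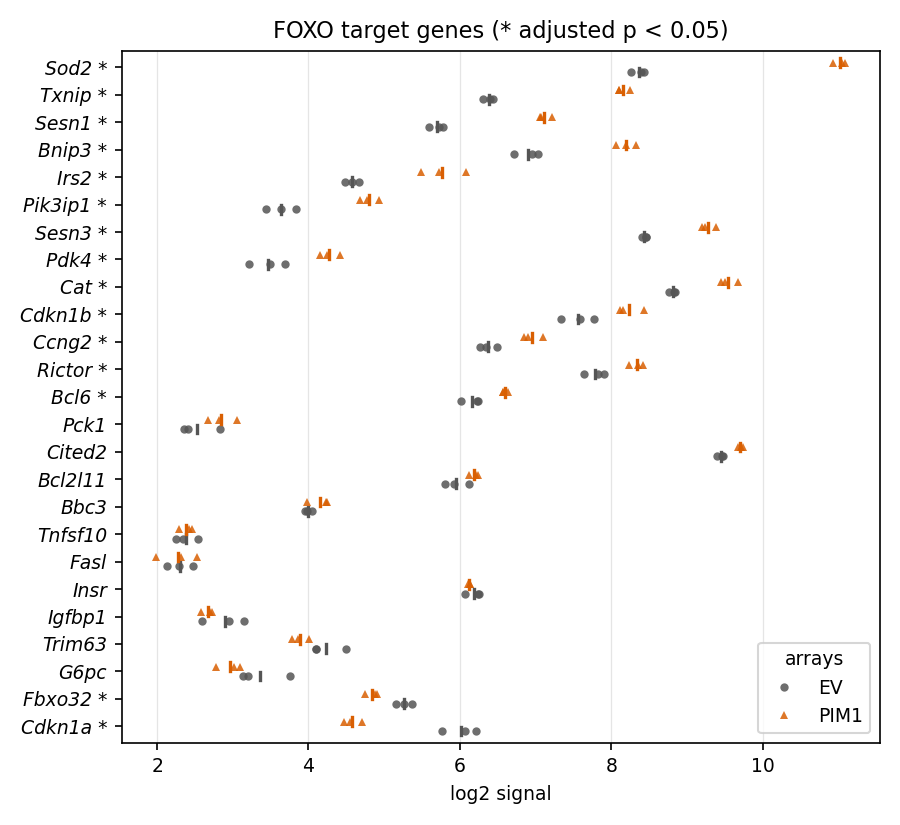
Log2 signal (x axis) of the 25 measured FOXO target genes on each array, ordered by difference, with EV as circles, PIM1 as triangles, bars at the group means and a star for adjusted p under 0.05. Sod2 heads the 13 starred genes that are higher in PIM1, and Fbxo32 and Cdkn1a are the 2 starred genes that are lower.

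Of 19 measured genes for kinases and 14-3-3 proteins that act on FOXO factors or upstream of them, 3 rose and 3 fell. Their share called was 31.6%, with a median difference of 0.03. It was near the 27.0% of all genes and below the 44.0% of genes above the median level, where 18 of the 19 lie. Sgk1, a serum- and glucocorticoid-induced kinase that phosphorylates FOXO proteins, rose from 5.43 ± 0.20 to 7.49 ± 0.08 (difference 2.06, adjusted p = 1.35e-05). Pik3cb, a catalytic subunit of PI3K, fell by 1.28, and Pik3r1, a regulatory subunit, rose by 0.87. Among the 14-3-3 genes, whose products hold phosphorylated FOXO proteins, Ywhaq fell by 0.92, Ywhah fell by 0.48 and Ywhab rose by 0.33. The Ywhah call was lost without PIM1 replicate 2 (adjusted p = 0.0515, with a highest value of 0.130 over its alternatives) and the Ywhaq call when probe sets were averaged (0.0507, its highest value). Ywhab passed only when PIM1 replicate 3 was the array left out, and otherwise reached 0.0531 to 0.131 with 1 array fewer, in a range from 0.00212 to 0.238 over its alternatives.

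Foxm1, the forkhead factor of G2 and mitosis, fell. It read 8.07, 8.24 and 8.34 in EV and 7.58, 7.49 and 7.21 in PIM1, a 1.73-fold difference (-0.79, standard error 0.131, adjusted p = 0.00286). Of 18 measured FOXM1 target genes, limma called 0 higher and 2 lower, 11.1% of the list against 27.0% of all genes and 44.0% of genes above the median level, where all 18 lie. Their median difference was 0.03, and 4 had an unadjusted p under 0.05. The genes that fell were Top2a, the topoisomerase of dividing cells (-0.69), and Cenpf, a kinetochore protein (-0.72). The mitotic kinesin gene Kif20a differed by 0.29 (adjusted p = 0.05003) and was not called. Plk1 and Aurka, kinases of mitotic entry, differed by -0.17 and -0.01 and were not called. An adjusted p above the threshold does not show that these targets were unchanged.

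The remaining called FOX genes changed by less than 2-fold. Foxn3, a repressor linked to cell cycle checkpoints, read 6.044, 5.997 and 6.0001 in EV and 6.74, 6.88 and 6.92 in PIM1 (difference 0.83, adjusted p = 0.000451). Foxp2, a factor of brain and lung development, read 3.16, 2.86 and 3.03 against 3.77, 3.83 and 4.20, at a low signal (difference 0.92, adjusted p = 0.00203). Foxk2, a factor of metabolism and autophagy control, read 8.57, 8.49 and 8.66 against 7.94, 8.08 and 7.94 (difference -0.59, adjusted p = 0.00347). Its paralog Foxk1 read 7.55, 7.54 and 7.59 against 7.79, 7.60 and 7.67 and was not called (difference 0.13, adjusted p = 0.380). Foxp1, the brightest FOX member and a repressor of many tissues, read 8.85, 8.91 and 8.96 against 9.25, 9.21 and 9.21, a rise of 0.32 with no overlap (adjusted p = 0.0358). Foxj2 fell by 0.34, from 7.203, 7.055 and 7.106 to 6.75, 6.79 and 6.79 (adjusted p = 0.0283). The other Foxj2 probe set, which was dimmer, differed by -0.06 (limma adjusted p = 0.848, over every probe set). The Foxj2 call was lost when the probe sets of each gene were averaged. The changes of Foxp1 and Foxj2 were small beside those of Foxq1 or Foxf1. Foxi2, a factor of the ear and branchial arches, read 4.52, 4.78 and 4.39 in EV and 3.92, 4.23 and 4.06 in PIM1 (difference -0.49, adjusted p = 0.0291). Foxn1, the factor of thymic epithelium and hair, read 4.34, 4.26 and 4.01 against 3.77, 3.91 and 3.77 (difference -0.39, adjusted p = 0.0414).

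Of the 25 FOX members that were not called, several were bright. Foxn2 read 7.67, 7.74 and 7.86 in EV and 7.42, 7.35 and 7.55 in PIM1 (difference -0.31, adjusted p = 0.0593). Foxp4 read 6.98, 6.96 and 6.93 against 6.99, 6.96 and 6.94 (difference 0.01, adjusted p = 0.970). Foxj3 read 6.97, 6.83 and 6.81 against 6.79, 6.58 and 7.001 (difference -0.08, adjusted p = 0.700). The arrays of Foxn2 did not overlap, and those of Foxp4 and Foxj3 did. Foxa3, a factor of liver and gut, differed by -0.53 with no overlap (adjusted p = 0.0578). The others that were not called were Foxb1, Foxb2, Foxd1, Foxd2, Foxd3, Foxd4, Foxe1, Foxe3, Foxh1, Foxi1, Foxi3, Foxj1, Foxn4, Foxp3, Foxr1, Foxr2 and Foxs1, beside Foxc2, Foxk1, Foxl2 and Foxo6. Of the 17 named first here, each lay at a mean level of 4.70 or less.

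**Figure D4:**
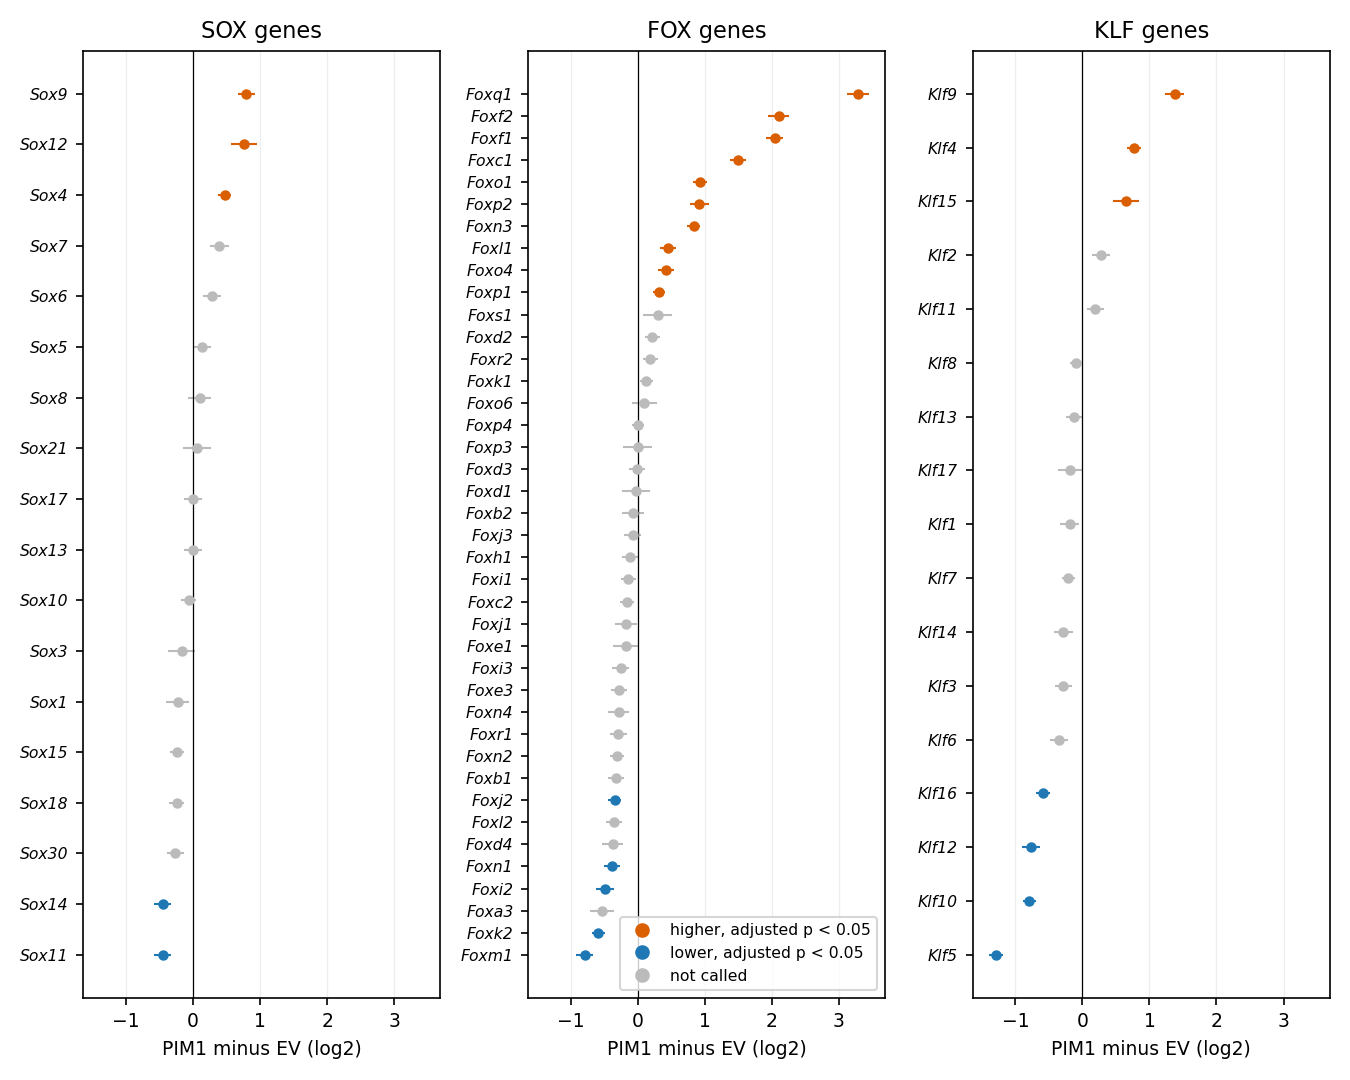
PIM1 minus EV difference (x axis, log2) of the 18 SOX, 40 FOX and 17 KLF members, as points with standard errors from limma. Orange points rose and blue points fell at adjusted p under 0.05, and grey points were not called. Foxq1 lies farthest to the right and Klf5 farthest to the left.

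In the KLF family 3 of 17 genes rose and 4 fell (41.2% called), against 27.0% of all genes and 44.0% of genes above the median level. Some KLF genes do not lie above that level, and at or below it 10.0% of genes were called. Klf5, which promotes proliferation in epithelial crypts and basal layers, fell most. It read 8.80, 8.66 and 8.71 in EV and 7.39, 7.34 and 7.57 in PIM1, a 2.44-fold difference (-1.29, standard error 0.105, adjusted p = 6.61e-05). Klf4, a factor of epithelial differentiation, went the other way, from 5.41, 5.62 and 5.56 to 6.28, 6.26 and 6.36 (difference 0.77, adjusted p = 0.000897). Of the 8 basal epithelial markers 3 were lower on the same arrays, Itga6 by 2.10, Cdh3 by 1.29 and Lamb3 by 1.03. The other 5 were not called, with differences from -0.42 (Krt14) to 0.18 (Lama3). The part of any change in cell makeup in the fall of Klf5 was not tested.

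The other activators of this group were not called. Klf6, an early-response factor and the brightest uncalled member, read 8.84, 8.40 and 8.59 in EV and 8.25, 8.39 and 8.16 in PIM1 (difference -0.34, adjusted p = 0.0993). Klf7 read 6.50, 6.34 and 6.37 against 6.12, 6.17 and 6.30 (difference -0.21, adjusted p = 0.175). The other Klf7 probe set, which was dimmer, differed by -0.48 (limma adjusted p = 0.0767, over every probe set). Klf7 passed when the probe sets of each gene were averaged. Klf2, a factor of quiescent endothelium, and the erythroid factor gene Klf1 lay at low signals, with differences of 0.28 and -0.19. Of 8 measured KLF2 and KLF4 target genes 2 rose and 2 fell (median difference -0.11), where 27.0% of all genes were called. Thbd, the thrombin receptor thrombomodulin, rose by 1.35 and S1pr1, a sphingosine-1-phosphate receptor, by 0.64, whereas Cdkn1a, also on the FOXO target list, fell by 1.44 and Krt19, a simple epithelial keratin, by 0.73. The Krt19 call was lost without PIM1 replicate 1, 2 or 3 (adjusted p = 0.0833, 0.0756 and 0.107, in a range from 0.0131 to 0.107). The S1pr1 call was lost after quantile normalization (adjusted p = 0.0736, with 0.00382 as the lowest value over its alternatives).

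Among the KLF factors that recruit the corepressor Sin3A, 1 of 6 rose and 2 fell, where 27.0% of all genes were called. Klf9, a glucocorticoid- and thyroid hormone-induced factor, read 5.91, 5.99 and 6.38 in EV and 7.54, 7.40 and 7.47 in PIM1, a 2.60-fold rise (difference 1.38, standard error 0.138, adjusted p = 0.000204). Its upstream window, shown above, holds a forkhead core motif. Klf10, an early gene of TGF-beta signalling, read 7.23, 7.16 and 7.12 against 6.45, 6.31 and 6.39 (difference -0.79, adjusted p = 0.000561). Klf16 read 7.13, 7.24 and 7.17 against 6.63, 6.68 and 6.47 (difference -0.59, adjusted p = 0.00359). For each of these genes the groups lay well apart. Klf11 read 5.28, 5.49 and 5.45 against 5.60, 5.40 and 5.80, with overlap (difference 0.19, adjusted p = 0.315). Klf13 differed by -0.12 with overlap, and Klf14, at a low signal, by -0.28.

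Of the KLF factors that bind the corepressor CtBP, Klf12 read 5.19, 4.84 and 5.17 in EV and 4.28, 4.13 and 4.47 in PIM1, a fall of 0.77 (adjusted p = 0.00436). Klf3 read 7.88, 7.46 and 7.54 against 7.31, 7.32 and 7.39 and was not called (difference -0.29, adjusted p = 0.139). Klf8 lay at a low signal and differed by -0.10. Outside these groups Klf15, a factor of amino acid and glucose metabolism that glucocorticoids induce, read 3.950, 3.651 and 3.356 in EV and 3.996, 4.314 and 4.605 in PIM1 (difference 0.65, adjusted p = 0.0393). The highest EV value of Klf15 lay just under its lowest PIM1 value. Klf17 was not called.

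In the SOX family 3 of 18 genes rose and 2 fell, and 27.8% were called, near the 27.0% of all genes. Sox9, which directs cartilage formation and is active in prostate bud epithelium, read 6.75, 6.37 and 6.65 in EV and 7.31, 7.53 and 7.32 in PIM1 (difference 0.80, standard error 0.130, adjusted p = 0.00274, 1.74-fold). Of 15 measured SOX9 target genes of cartilage limma called 0 higher and 1 lower (6.67%), against 27.0% of all genes and 10.0% of those at or below the median level, where 10 of the 15 lie. An unadjusted p under 0.05 was found for 5 of the 15. The one that fell was Col11a1, a fibrillar collagen chain, from 6.61 ± 0.07 to 5.59 ± 0.06 (difference -1.01). Hapln1, a link protein of cartilage matrix, and the collagen gene Col27a1 differed by -0.36 and 0.53 and were not called. The median EV level of the list was 3.38, below the median of all genes. The related genes Sox8 and Sox10 lay at low signals and were not called (differences 0.10 and -0.07).

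The SOXC genes, which act in progenitors of many tissues, were each called but not in one direction, where 27.0% of all genes were called. Sox4, the brightest SOX member, read 8.07, 8.14 and 8.07 in EV and 8.56, 8.66 and 8.48 in PIM1, a rise of 0.48 (adjusted p = 0.00808). The other Sox4 probe set, which was dimmer, had a difference of the opposite sign, -0.16 (limma adjusted p = 0.440, over every probe set). The call was lost when the probe sets of each gene were averaged (adjusted p = 0.291, with 0.000348 as the lowest over its alternatives). Sox12 read 3.58, 2.89 and 2.98 against 3.74, 3.81 and 4.18, a low signal with EV replicate 1 close to the PIM1 arrays (difference 0.76, adjusted p = 0.0242). Sox11 read 5.17, 5.18 and 5.34 against 4.54, 4.82 and 4.96 (difference -0.45, adjusted p = 0.0332).

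Sox14, a factor of the nervous system, read 5.26, 4.89 and 4.86 in EV and 4.61, 4.57 and 4.47 in PIM1 (difference -0.45, adjusted p = 0.0340). Sox21 of the same group was not called, and its probe sets differed in sign (0.06 and -0.48). The SOXD genes Sox5, Sox6 and Sox13, partners of Sox9 in cartilage, differed by 0.13, 0.28 and -0.01 and were not called. The endothelial SOXF genes Sox7, Sox17 and Sox18 differed by 0.39, 0.00 and -0.24 at low signals and were not called. Sox1, Sox3, Sox15 and Sox30 were not called either.

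Some of the called members are neighbours on a chromosome in the RefSeq gene order. Foxq1, Foxf2 and Foxc1 follow one another on chromosome 13, and each rose. The long non-coding RNA gene 1700018A04Rik between Foxq1 and Foxf2 rose by 0.59 (adjusted p = 0.00694), and Gmds, a GDP-mannose dehydratase gene beyond Foxc1, by 0.75 (adjusted p = 0.000666). On the other side of Foxq1 the nearest measured gene, G630018N14Rik, was not called (difference -0.22). In a second group on chromosome 8 Foxf1 and Foxl1 rose and Foxc2 between them was not called, and Fendrr, a non-coding RNA gene next to Foxf1, rose by 0.77 (adjusted p = 0.00179). Mthfsd, which lies between Foxf1 and Foxc2, differed by 0.10 and was not called.

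Klf5 and Klf12 lie next to each other among the protein-coding genes of chromosome 14, and both fell. Pibf1, a centrosomal protein gene on the other side of Klf5, fell by 0.79 (adjusted p = 0.00203). Prr30, beyond Klf12, differed by -0.29 and was not called. The pairs Foxd2 and Foxe3 on chromosome 4 and Foxr2 and Klf8 on the X chromosome held no called member, while Cmpk1, a nucleotide kinase gene beside Foxe3, fell by 0.56 (adjusted p = 0.00721) and Ubqln2, a ubiquilin gene beside Klf8, by 0.92 (adjusted p = 0.000427). These groups of neighbours were looked for after the values had been seen.

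**Figure D5:**
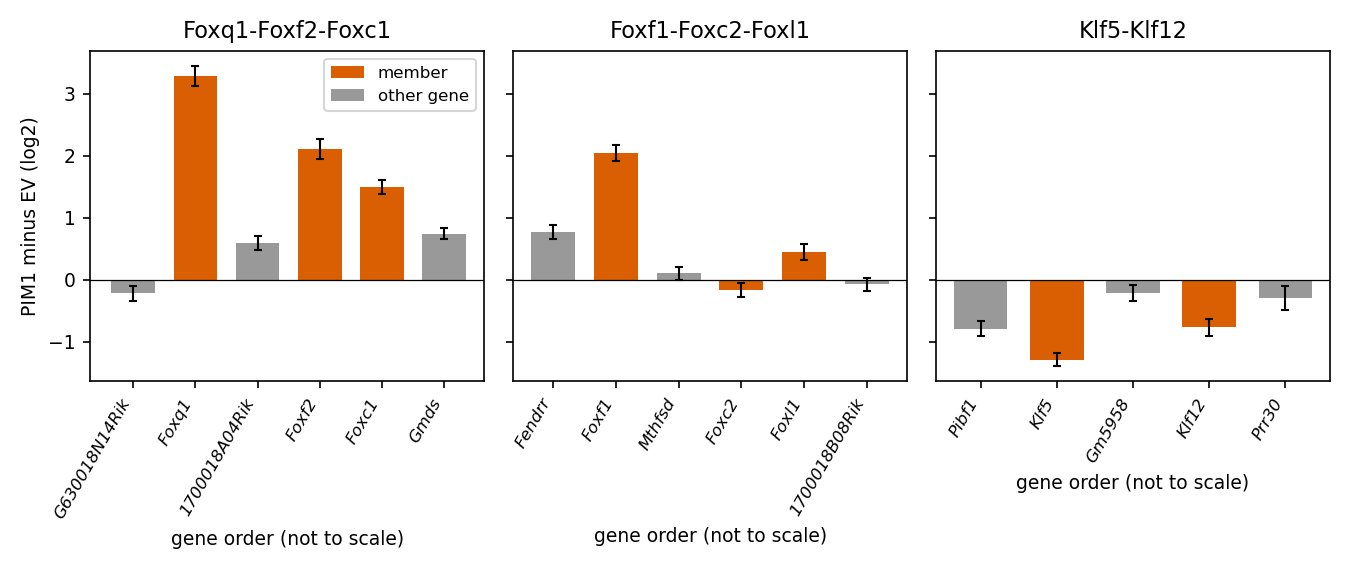
PIM1 minus EV difference (y axis, log2, bars with limma standard errors) of neighbouring members and the nearest measured genes, in gene order and not to scale. Foxq1, Foxf2 and Foxc1 rose together, Foxf1 and Foxl1 rose with Foxc2 uncalled between them, and Klf5 and Klf12 fell.

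Of the 27 calls, 16 passed under every alternative in which the gene was tested, and the other 11 did not. No called member changed sign under any of 15 alternatives. Foxp1 did not pass without any 1 of the 6 arrays (adjusted p = 0.0838, 0.0712 and 0.0542 without EV replicate 1, 2 and 3, and 0.120, 0.0984 and 0.0680 without PIM1 replicate 1, 2 and 3, in a range from 0.00162 to 0.245 over its alternatives). Foxo4 lost its call without PIM1 replicate 1 or 2 (0.0547 and 0.10001), and likewise without EV replicate 1, 2 or 3 (0.0574, 0.0669 and 0.0673), in a range from 0.0109 to 0.229. Foxj2 lost its call without PIM1 replicate 1, 2 or 3 (0.0988, 0.0837 and 0.0592), and likewise without EV replicate 1 or 3 (0.0719 and 0.0574), in a range from 0.00550 to 0.221. Foxn1 lost its call without PIM1 replicate 1, 2 or 3 (0.128, 0.0738 and 0.108), and likewise without EV replicate 1 or 2 (0.105 and 0.0988), in a range from 0.0156 to 0.128. The differences of these 4 genes were 0.32 to 0.42 in size. Their calls were also lost with all 6 arrays kept. Foxp1 and Foxo4 did not pass after quantile normalization, after cyclic loess, under the replicate block or in the fit of every probe set. Foxj2 and Foxn1 did not pass under the replicate block, in the fit of every probe set or after centring over all probe sets. Foxj2 also did not pass with averaged probe sets, and Foxn1 with a trended and robust variance.

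Sox11 lost its call without PIM1 replicate 1 or 2 (adjusted p = 0.112 and 0.0819), and likewise without EV replicate 1, 2 or 3 (0.0549, 0.0562 and 0.0896), in a range from 0.00584 to 0.112. Sox14 lost its call without PIM1 replicate 1, 2 or 3 (0.0765, 0.0903 and 0.103), and likewise without EV replicate 1 (0.0679), in a range from 0.0115 to 0.103. Sox12 lost its call without PIM1 replicate 2 or 3 (0.0564 and 0.0893), and likewise without EV replicate 2 or 3 (0.0667 and 0.0663), in a range from 0.00459 to 0.0893. Klf15 lost its call without PIM1 replicate 2 or 3 (0.104 and 0.127), and likewise without EV replicate 2 or 3 (0.0794 and 0.101), in a range from 0.0208 to 0.127. Foxi2 lost its call without PIM1 replicate 1 or 3 (0.108 and 0.0803), and likewise without EV replicate 1 or 2 (0.0554 and 0.0756), in a range from 0.0118 to 0.108. Foxl1 lost its call without PIM1 replicate 1, 2 or 3 (0.0536, 0.0775 and 0.0895), and likewise without EV replicate 1 (0.0709), in a range from 0.0143 to 0.0895. With all 6 arrays kept, Sox11, Sox14, Sox12, Klf15, Foxi2 and Foxl1 did not pass in the fit of every probe set. Sox11, Sox14 and Foxi2 also did not pass after centring over all probe sets, and Klf15 under the replicate block. Among members that were not called, Foxb1 passed without EV replicate 1 (0.0360), and Klf6 and Sox7 passed without EV replicate 2 (0.0474 and 0.0227).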

How the data were processed

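RNA from 3 EV and 3 PIM1 samples was measured on Affymetrix whole-transcript mouse arrays. Labelled cDNA was prepared with the GeneChip WT PLUS kit, per the labels' protocols. The authors deposited a single processed value for each probe set on each array, read here as a log2 signal because the values ran from 0.34 to 13.0. The submitters' processing notes list Affymetrix Expression Console, whereas log base, background correction and normalization are not stated in any source used. The number of arrays limits the precision, and no detection call was used.

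Of 41345 probe sets 23521 had 1 gene symbol in the platform annotation, 1814 had several and 16010 had none. Of the 23521, 23328 matched the GRCm38.p6 RefSeq table by Entrez identifier and 0 symbols were updated. The brightest probe set by mean over 6 arrays was kept per gene, leaving 22180 genes. Of the members 7 had more than 1 probe set.

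PIM1 was compared with EV by limma's moderated two-sided test (version 3.58.1, R 4.3.3), with no covariate, and p-values were adjusted by Benjamini-Hochberg over 22180 genes at a threshold of 0.05. The script was tested on simulated data. Named genes are every member, with array values for the called members in order of size to 24 and for the 8 brightest uncalled members (Foxn1, Foxj2, Foxp1, Foxc2 and Foxo6 were added), 3 genes by p from each list, and Pim1. Any other gene was named with its values already seen. The members and lists were chosen with earlier results of these data known. The alternatives tried were leaving out each array, the replicate number as a block, quantile, cyclic loess and median-centred scaling, a trended and robust variance, the brighter genes alone, averaged probe sets and a fit of every probe set. Centring over all probe sets was added after seeing the data.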

Additional observations from a re-analysis of the deposited data

How the results depend on the processing

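The number of members called higher was 16 and stayed between 11 and 17 over 15 alternatives. The number called lower was 11. It was 6 in the fit over all probe sets and 6 after centring on the median of all probe sets, and 6 to 9 when 1 array was left out, with the fewest without PIM1 replicate 1. With quantile normalization 16 members were called lower and 14 higher. Samples with the same replicate number did not deviate together (correlations over genes of 0.0558, -0.0314 and 0.00875 for numbers 1, 2 and 3), and the labels give no pairing, so they share only a number. With the replicate number as a block 13 were higher and 9 lower, and 5321 genes were called against 5995. Of the FOXM1 target genes, 5 were called with a trended and robust variance and 4 after quantile normalization, among the brighter genes alone or after centring over all probe sets, against 2. Of the SOX9 target genes 2 were called after quantile normalization or centring over all probe sets, and 1 to 3 with 1 array left out, the 3 without EV replicate 1. KLF2 and KLF4 target genes gave 2 calls after quantile normalization against 4. SP relatives gave 1 call among the brighter genes, over all probe sets, under the replicate block or after centring over all probe sets, and 1 to 2 with 1 array left out, against 2. TCF and LEF relatives gave 1 to 3 with 1 array left out, against 3, the 1 without PIM1 replicate 2. The fit of the brighter genes tested 46 of the 75 members and 4 of the 8 SP genes, and Sp5 was not among them. Otherwise the cause of these shifts was not tested. The fit over all probe sets adjusts over more tests and also gave other standard errors, 0.116 against 0.109 for Foxo1. Leaving out an array uses fewer samples. Outside the members called, 8 members passed under at least 1 alternative, among them Foxn2, Foxa3, Klf6 and Klf7.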

Other observations

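The SP genes, the closest relatives of the KLF family, included 2 falls and 0 rises among 8 measured (25.0%), near the 27.0% of all genes called. Sp8, a factor of limb and forebrain outgrowth, fell from 4.33 ± 0.12 (SD, n = 3) to 3.76 ± 0.15 (difference -0.57, limma adjusted p = 0.00887), and Sp5, a target of WNT signalling, fell by 0.48 at a low signal (adjusted p = 0.0227). Sp5 lost its call without PIM1 replicate 1 or 3 (adjusted p = 0.0812 and 0.0751), and likewise without EV replicate 1 or 3 (0.0611 and 0.0524), in a range from 0.0150 to 0.0812. Sp6 differed by -0.35 and was not called. Of 12 genes for KLF corepressors, coactivators and the ubiquitin ligases Wwp1 and Fbxw7, 3 rose and 2 fell (41.7%). This share was near the 44.0% of genes called above the median level, where all 12 lie. Wwp1, a ubiquitin ligase that targets KLF5 for degradation, fell by 0.99, from 8.69 ± 0.08 to 7.70 ± 0.16, and the histone deacetylase genes Hdac3 and Hdac1 rose by 0.74 and 0.60 while Hdac2 fell by 0.48. Hdac2 lost its call without PIM1 replicate 1 or 2 (adjusted p = 0.0640 and 0.0756, in a range from 0.00146 to 0.0756).

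The HMG-box genes of the TCF and LEF group, which act with beta-catenin in WNT signalling, were called in 3 of 3 measured cases. The share called was 27.0% of all genes and 44.0% of genes above the median level. By the mean over 6 arrays all 3 lie above that level. By the EV mean 2 lie above the EV median of 3.99, and Lef1, at 3.79, does not. Tcf7l2 fell by 0.91, from 6.49 ± 0.22 to 5.58 ± 0.13, and Tcf7l1 fell by 0.53, whereas Lef1 rose by 0.45 at a low signal. Tcf7l1 did not pass without PIM1 replicate 1 or 2 (adjusted p = 0.0652 and 0.0605, in a range from 0.00243 to 0.0652). Lef1 lost its call without PIM1 replicate 2 or 3 (0.0910 and 0.0629), and likewise without EV replicate 1 or 2 (0.0647 and 0.0651), in a range from 0.00824 to 0.0910.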
